A study of Homo sapiens with 6 samples.

Results

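The genes described here encode the kinase complex mTORC1, its brakes, the Rag GTPases that recruit it, and its targets in translation. They are the 10 genes MTOR, RPTOR, DEPTOR, TSC1, TSC2, RRAGC, RRAGD, EIF4EBP1, EIF4EBP2 and RPS6KB1, chosen by name, and each matched 1 of the 58825 rows of the deposited table by its gene symbol. The choice was made with earlier results of these data known. All 10 were among the 19510 genes that were expressed enough to be tested, at a mean of at least 0.1 FPKM (fragments per kilobase of a gene's transcripts, corrected for sequencing depth) over the libraries.

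mTORC1 is a serine/threonine kinase complex that couples nutrient and growth factor supply to protein synthesis. Amino acids act through heterodimers of a RagA or RagB with a RagC or RagD GTPase, which bring the complex to the lysosome, where the GTPase Rheb switches it on. The TSC1-TSC2 complex keeps Rheb inactive, and DEPTOR binds and restrains the kinase. Active mTORC1 phosphorylates the S6 kinases and the 4E-BPs, and the phosphorylated 4E-BPs release the cap-binding protein eIF4E. In tubular epithelial cells the pathway is known for its part in cell growth, nutrient transport and autophagy.

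Poly(A) RNA was sequenced from HK-2 cells, an immortalized human line derived from proximal tubular epithelium, in 3 Control libraries and 3 OX-LDL libraries. The Control cells were untreated, with no time given, and the OX-LDL cells had received oxidized low-density lipoprotein, a lipid particle that loads cells with oxidized lipid, at 25 μg/ml for 48 h. The study's methods place a period in low-serum medium before the OX-LDL treatment, and do not say whether the Control cells had it too. The study's methods describe its in vitro experiments as independently performed, but neither they nor the labels say so of these libraries, so p-values measure the spread between these libraries, which may be technical. RNA was measured, and neither protein amount nor phosphorylation was.

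The libraries held 62561347 to 76797607 estimated counts each, and mitochondrial genes took 5.25% to 5.69% of them. Of the 13 tubular epithelial markers looked for, 7 had a mean of at least 1 FPKM in each group, and 5 (ANPEP, AQP1, LRP2, CUBN and SLC34A1), which define the differentiated proximal tubule, were below 0.1 FPKM in both groups. The summed level of the 13 was 194 to 211 FPKM in Control and 239 to 277 FPKM in OX-LDL, and single markers went both ways. KRT8, KRT19, CDH2 and CDH6 rose by 0.29 (CDH2) to 1.94 (KRT19) on the log2 scale, while the renal lineage factor PAX8 fell by 1.23 (adjusted p-value 0.0182) and PAX2 had a log2 fold change of -1.0 (adjusted p-value 0.0781). GGT1 was listed in 2 rows, 1 of them called lower, and which row was the higher differed between Control libraries. Of 10 markers of leukocytes, endothelium, fibroblasts and other nephron segments, 8 were below 0.1 FPKM, and their summed level without the lysosomal gene CD68 was 0.548 to 0.751 FPKM in Control and 0.692 to 0.968 FPKM in OX-LDL. CD68 took the sum to 3.32 to 8.31 and 9.88 to 14.5 FPKM, and the part of these shifts in the results below was not tested. In bulk RNA, fewer cells of one kind and less RNA per cell cannot be told apart.

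RRAGC and TSC2 were the members whose promoter window held the letters CACGTG, the E-box core that MYC and the TFEB family recognise, and their promoters are shown for that reason. Windows from 250 bases before to 50 bases after the start site were taken from RefSeq for 7 of the 10 genes, and both strands were searched. No window was available for EIF4EBP1, RRAGD or DEPTOR, so these genes were not searched for any motif. The motif was present in 2 of the 7 windows (28.6%) and in 7.26% of all 35116 windows. In the 250 bases before the start site, written 5′ to 3′ on the gene's own strand with CACGTG in capitals, it begins 112 bases before the RefSeq start of RRAGC (GRCh38.p14, chr1:38859773-38860022, minus strand) and 114 bases before that of TSC2 (GRCh38.p14, chr16:2047735-2047984, plus strand). The deposited table starts TSC2 slightly earlier than RefSeq, within the end of this stretch.
RRAGC: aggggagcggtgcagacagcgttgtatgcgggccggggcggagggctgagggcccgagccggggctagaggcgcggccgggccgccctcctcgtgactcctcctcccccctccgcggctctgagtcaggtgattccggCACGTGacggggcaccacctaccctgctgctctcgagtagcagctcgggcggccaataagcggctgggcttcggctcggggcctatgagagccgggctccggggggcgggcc
TSC2: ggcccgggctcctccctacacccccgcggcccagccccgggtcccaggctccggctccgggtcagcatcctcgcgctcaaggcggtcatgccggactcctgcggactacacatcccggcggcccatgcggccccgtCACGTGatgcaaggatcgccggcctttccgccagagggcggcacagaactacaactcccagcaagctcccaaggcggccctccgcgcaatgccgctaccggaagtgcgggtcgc
The longer CLEAR element, the palindrome that TFEB targets often carry, was in none of the 7 windows (0.353% of all windows). TGATGNAAN, the composite element of the amino acid response, was in the window of TSC2 alone (1 of 7, and 3.61% of all windows), where it overlaps the CACGTG. Among the other genes of the pathway introduced below, 13 of 68 windows held CACGTG, which comprised 1 of 14 genes called lower (FNIP1, named here after its values were seen), 2 of 6 called higher (EIF4G1 and EEF2K) and 9 of 45 not called, and the last was EIF4EBP3, which was not tested. A match describes the letters in the window and shows no binding.

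OX-LDL-treated cells held less EIF4EBP1 and less RRAGC RNA than Control cells, and these were the members that passed the test. EIF4EBP1, encoding the translation repressor 4E-BP1, was at 46.8% of its Control level, and RRAGC, encoding RagC, at 73.2%. The core kinase gene MTOR differed by 0.07 on the log2 scale. DEPTOR had the fold furthest from 1 of the members, at 20.9% of Control, but its libraries varied widely and it did not pass.

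With edgeR, 2 of the 10 members had an adjusted p-value under 0.05, both lower in OX-LDL, where 15.3% of all tested genes were called, 7.91% higher and 7.42% lower. EIF4EBP1 was the 1 member that was also beyond a 2-fold change, against 3.91% of all tested genes. The FPKM ranges of the groups did not overlap for 7 members, 6 of them lower in OX-LDL (RPTOR, DEPTOR, TSC1, RRAGC, RRAGD and EIF4EBP1) and 1 higher (EIF4EBP2), and 37.2% of all tested genes did not overlap. The median log2 fold change was -0.24 over the members and -0.0043 over all tested genes. The count of called members was 1 without Control replicate 2, and likewise 1 when OX-LDL replicate 1 was left out.

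**Figure D1:**
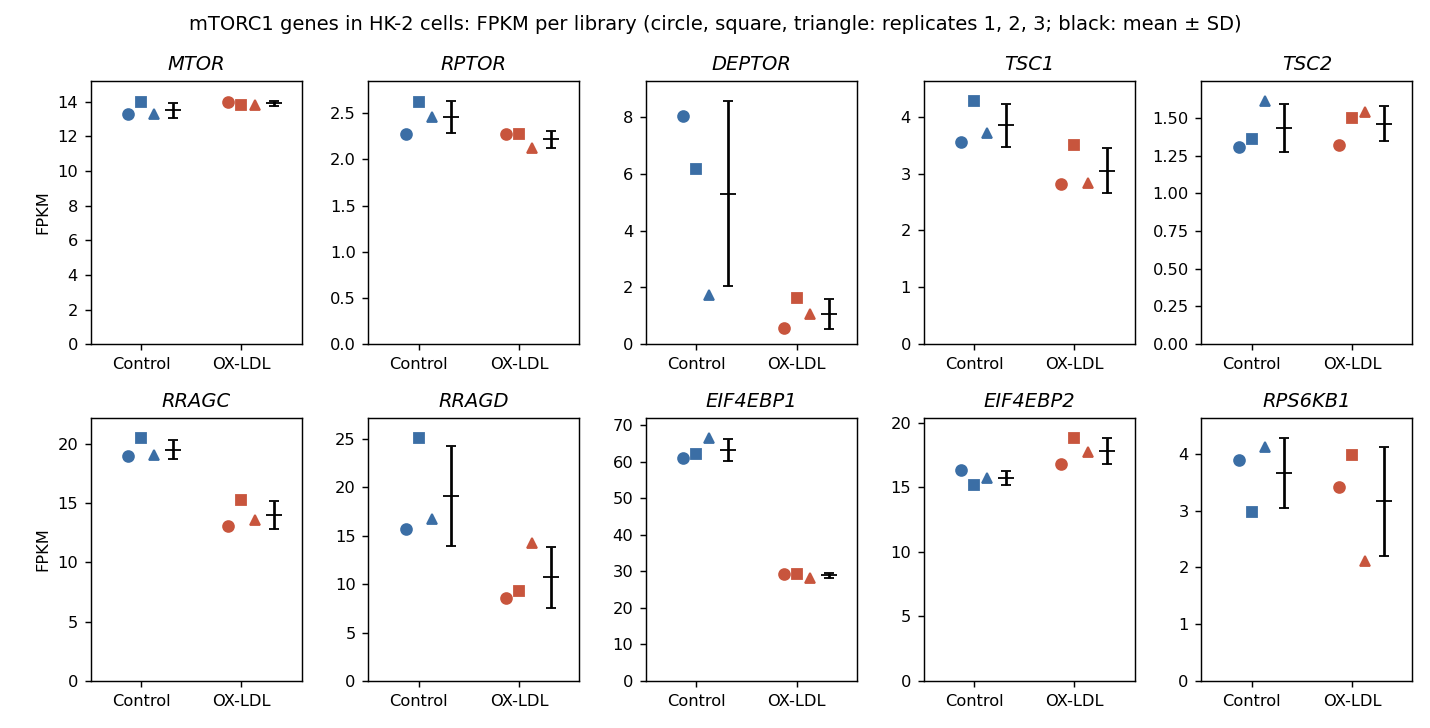
FPKM of each of the 10 genes (vertical axes, from 0, each on its own scale) in the 3 Control libraries (blue) and the 3 OX-LDL libraries (red), with circles, squares and triangles for replicates 1, 2 and 3 and the mean ± SD in black. EIF4EBP1 stands at 61.0 to 66.5 FPKM in Control and 28.1 to 29.3 in OX-LDL, while the Control points of DEPTOR spread from 1.72 to 8.04.

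**Figure D2:**
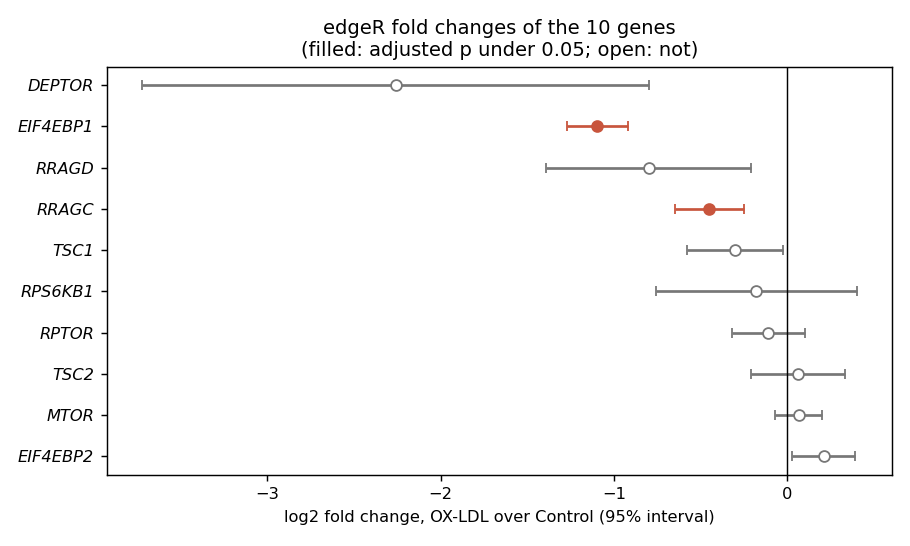
The log2 fold change of OX-LDL over Control (horizontal axis) with its 95% interval for each of the 10 genes, filled where the adjusted p-value was under 0.05. EIF4EBP1 (-1.10) and RRAGC (-0.45) are filled, and the interval of DEPTOR is the widest, from -3.72 to -0.80.

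Among the subunits of mTORC1, the catalytic kinase MTOR (ENSG00000198793, GRCh38 chr1:11106535-11262507, minus strand) was at 13.3, 14.0 and 13.3 FPKM in Control and 14.0, 13.8 and 13.8 FPKM in OX-LDL. These ranges overlapped, while in TMM-scaled counts every OX-LDL library lay above every Control library. In FPKM, MTOR varied by a coefficient of variation of 3.08% in Control and 0.888% in OX-LDL. The log2 fold change was 0.07 ± 0.06 (SE), with an adjusted p-value of 0.51 and a 95% interval of the fold from 0.951 to 1.15.

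RPTOR (ENSG00000141564, chr17:80544819-80966368, plus strand) encodes Raptor, the scaffold that presents substrates to the kinase. It was at 2.28, 2.62 and 2.46 FPKM in Control and 2.28, 2.28 and 2.12 FPKM in OX-LDL. The groups came apart in FPKM only from the third decimal on (2.2849 in the lowest Control library, 2.2788 in the highest OX-LDL library), and their TMM-scaled counts overlapped. It had a log2 fold change of -0.11 ± 0.09 (SE), with an adjusted p-value of 0.466 and an interval of the fold from 0.8 to 1.07.

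Among the brakes, DEPTOR (ENSG00000155792, chr8:119873717-120050918, plus strand), the subunit that inhibits the kinase, was at 8.04, 6.16 and 1.72 FPKM in Control and 0.560, 1.62 and 1.06 FPKM in OX-LDL. Control replicate 3 lay far below the other Control libraries and just above the highest OX-LDL library, so that the groups were apart by a narrow gap. These levels rested on counts of 1857, 1446 and 370 in the Control libraries and of 110, 386 and 254 after OX-LDL. In edgeR, the log2 fold change was -2.26 ± 0.62 (SE) with an adjusted p-value of 0.0521, and the 95% interval of the fold ran from 0.0759 to 0.575. DEPTOR was called in 4 of 16 alternative fits, among them DESeq2 (adjusted p-value 0.0105) and edgeR without Control replicate 3 (-2.68, adjusted p-value 0.0221).

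TSC1 (ENSG00000165699, chr9:132891348-132946874, minus strand) encodes hamartin, the stabilising partner of the TSC complex. It was at 3.55, 4.27 and 3.72 FPKM in Control and 2.81, 3.50 and 2.83 FPKM in OX-LDL. The groups did not overlap, since the lowest Control library stood just above the highest OX-LDL library, but the gap was smaller than the spread in either group. Its log2 fold change of -0.30 ± 0.12 (SE) had an adjusted p-value of 0.133, and without OX-LDL replicate 2 it was -0.41 with an adjusted p-value of 0.0432.

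TSC2 (ENSG00000103197, chr16:2047967-2089245, plus strand) encodes tuberin, which carries the activity that turns Rheb off. It was at 1.31, 1.36 and 1.61 FPKM in Control and 1.32, 1.5 and 1.54 FPKM in OX-LDL, and the groups overlapped. The log2 fold change was 0.06 ± 0.11 (SE), with an adjusted p-value of 0.771 and an interval of the fold from 0.864 to 1.26. TSC2 overlaps PKD1 on the other strand, whose mean FPKM was 0.883 in Control and 1.20 in OX-LDL, and whether the counting used strand is not given in the sources used here.

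Of the Rag GTPases, RRAGC (ENSG00000116954, chr1:38838198-38859772, minus strand), whose promoter is printed above, was at 19.0, 20.5 and 19.1 FPKM in Control and 13.1, 15.3 and 13.6 FPKM in OX-LDL. Every OX-LDL library lay below every Control library, with a gap between the groups wider than the range within either group. It had a log2 fold change of -0.45 ± 0.08 (SE), a fold of 0.732 (95% interval 0.638 to 0.839), with an adjusted p-value of 0.0163. The adjusted p-value was 0.0632 without Control replicate 2, 0.0593 without OX-LDL replicate 1 and 0.0696 without OX-LDL replicate 3, with log2 fold changes between -0.52 and -0.40 over the fits that left out 1 library.

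RRAGD (ENSG00000025039, chr6:89364636-89412270, minus strand) encodes RagD, which can take the place of RagC in the heterodimer. It was at 15.7, 25.1 and 16.7 FPKM in Control and 8.60, 9.30 and 14.3 FPKM in OX-LDL. The groups did not overlap, and each had 1 library well above its others, Control replicate 2 and OX-LDL replicate 3. The log2 fold change of -0.80 ± 0.25 (SE) had an adjusted p-value of 0.0777 and an interval of the fold from 0.382 to 0.867. RRAGD was called by DESeq2 (adjusted p-value 0.00885) and by edgeR without OX-LDL replicate 3 (-1.06, adjusted p-value 0.0489).

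Of the targets in translation, EIF4EBP1 (ENSG00000187840, chr8:38030534-38060365, plus strand) was at 61.0, 62.0 and 66.5 FPKM in Control and 29.2, 29.3 and 28.1 FPKM in OX-LDL. All OX-LDL libraries lay at less than 0.5 of any Control library, and the coefficient of variation was 4.61% in Control and 2.29% in OX-LDL. In edgeR, the log2 fold change was -1.10 ± 0.075 (SE), a fold of 0.468 (95% interval 0.414 to 0.529), with an adjusted p-value of 0.000919. EIF4EBP1 stayed called in all 16 alternative fits, with log2 fold changes from -1.13 to -1.06 and adjusted p-values of at most 0.0122.

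EIF4EBP2 (ENSG00000148730, chr10:70404145-70428618, plus strand) encodes 4E-BP2, a second repressor of eIF4E. It was at 16.3, 15.2 and 15.7 FPKM in Control and 16.8, 18.8 and 17.7 FPKM in OX-LDL. The groups did not overlap, with the OX-LDL libraries on the higher side, opposite to EIF4EBP1. Its log2 fold change of 0.21 ± 0.08 (SE) had an adjusted p-value of 0.121 and an interval of the fold from 1.02 to 1.31.

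RPS6KB1 (ENSG00000108443, chr17:59893046-59950421, plus strand) encodes S6K1, the kinase of ribosomal protein S6. It was at 3.90, 2.97 and 4.13 FPKM in Control and 3.41, 3.99 and 2.11 FPKM in OX-LDL. The groups overlapped, and OX-LDL replicate 3 was the lowest library. The log2 fold change was -0.18 ± 0.25 (SE) with an adjusted p-value of 0.676 and an interval of the fold from 0.589 to 1.32, and without OX-LDL replicate 3 it was 0.04.

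Within Control cells, EIF4EBP1 had the highest FPKM of the members at 63.2 ± 2.91 (SD, n = 3), clear of RRAGC at 19.5 ± 0.809, RRAGD at 19.1 ± 5.16 and EIF4EBP2 at 15.7 ± 0.563. RRAGC and RRAGD overlapped in range, as did RRAGD and EIF4EBP2. MTOR followed at 13.5 ± 0.417 FPKM, and then DEPTOR at 5.31 ± 3.25, TSC1 at 3.85 ± 0.378 and RPS6KB1 at 3.67 ± 0.613, with each overlapping the next. RPTOR at 2.46 ± 0.170 FPKM and TSC2 at 1.43 ± 0.159 were lowest, and both stood apart from their neighbours.

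In OX-LDL cells EIF4EBP1 was again highest, at 28.9 ± 0.662 FPKM (SD, n = 3), and EIF4EBP2 came next at 17.8 ± 1.01. RRAGC at 14.0 ± 1.15, MTOR at 13.9 ± 0.123 and RRAGD at 10.7 ± 3.13 overlapped in range, as did RPS6KB1 at 3.17 ± 0.959 and TSC1 at 3.05 ± 0.395. RPTOR stood at 2.22 ± 0.0930 FPKM, and TSC2 at 1.46 ± 0.116 overlapped DEPTOR at 1.08 ± 0.528. The order between genes rests on the length by which the deposited FPKM was divided, which followed the merged exons of all transcripts, 3.09 times the longest transcript for TSC2, 2.02 times for TSC1, 1.89 times for RRAGC, 1.61 times for RPTOR and 1.00 times for EIF4EBP2. On the length of the longest transcript RRAGC would stand second in both groups, at 36.9 FPKM in Control and 26.4 in OX-LDL, clear of its neighbours, MTOR would come before EIF4EBP2, and TSC2 would come before RPTOR. The length by which FPKM was divided did not vary by more than 1.38% between libraries.

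To compare members within a library, 6 ratios of FPKM were formed, which do not depend on library scaling. The ratio of EIF4EBP1 to EIF4EBP2 was 3.75, 4.09 and 4.22 in Control and 1.74, 1.55 and 1.59 in OX-LDL, and lay in every OX-LDL library below every Control library. The summed FPKM of the 4E-BP genes over that of EIF4E, the cap-binding protein they repress, was 25.0, 21.7 and 20.1 in Control and 11.7, 13.3 and 11.8 in OX-LDL, with no overlap either. The mean log2 ratio differed by -1.30 for the first and -0.86 for the second. The second rests on the lengths used for FPKM, since it sums genes of unlike length (merged exons of 1073 bases for EIF4EBP1 and 7257 for EIF4EBP2). By counts EIF4EBP2 was the higher of these genes in every library, for example 10713 against 4715 in Control replicate 1. The summed ratio was not tested on counts. Control replicate 3 held counts of 4763 (EIF4EBP1), 9600 (EIF4EBP2) and 4685 (EIF4E), and OX-LDL replicate 2 held 2342, 12819 and 4614. On counts the sum over EIF4E was thus higher in that OX-LDL library than in that Control library, so the groups overlapped. For both ratios of FPKM, the exact permutation test (two-sided) gave p = 0.1, the smallest that 3 libraries against 3 allow. After Benjamini-Hochberg adjustment over the 6 ratios, this p-value was 0.15.

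The ratio of DEPTOR to MTOR was 0.604, 0.440 and 0.129 in Control and 0.0400, 0.117 and 0.0770 in OX-LDL. The lowest Control library was close to the highest OX-LDL library, and the mean log2 ratio differed by -2.19 (exact permutation p = 0.1, adjusted 0.15). The ratio of RPTOR to MTOR was 0.172, 0.187 and 0.185 in Control and 0.163, 0.165 and 0.153 in OX-LDL, apart in every library by a difference of -0.18 on the log2 scale (exact permutation p = 0.1, adjusted 0.15). Both remaining ratios overlapped between the groups. RRAGD over RRAGC was 0.824, 1.23 and 0.872 in Control and 0.658, 0.609 and 1.06 in OX-LDL (exact permutation p = 0.3, adjusted 0.3), and TSC2 over TSC1 was 0.369, 0.319 and 0.433 in Control and 0.472, 0.429 and 0.545 in OX-LDL (exact permutation p = 0.2, adjusted 0.24). This permutation test cannot pass a threshold of 0.05 with 3 libraries a group. Leaving out 1 library moved the difference for DEPTOR over MTOR between -1.74 (without Control replicate 1) and -2.86 (without Control replicate 3), and that for RRAGD over RRAGC from -0.18 when Control replicate 2 was left out to -0.60 when OX-LDL replicate 3 was.

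**Figure D3:**
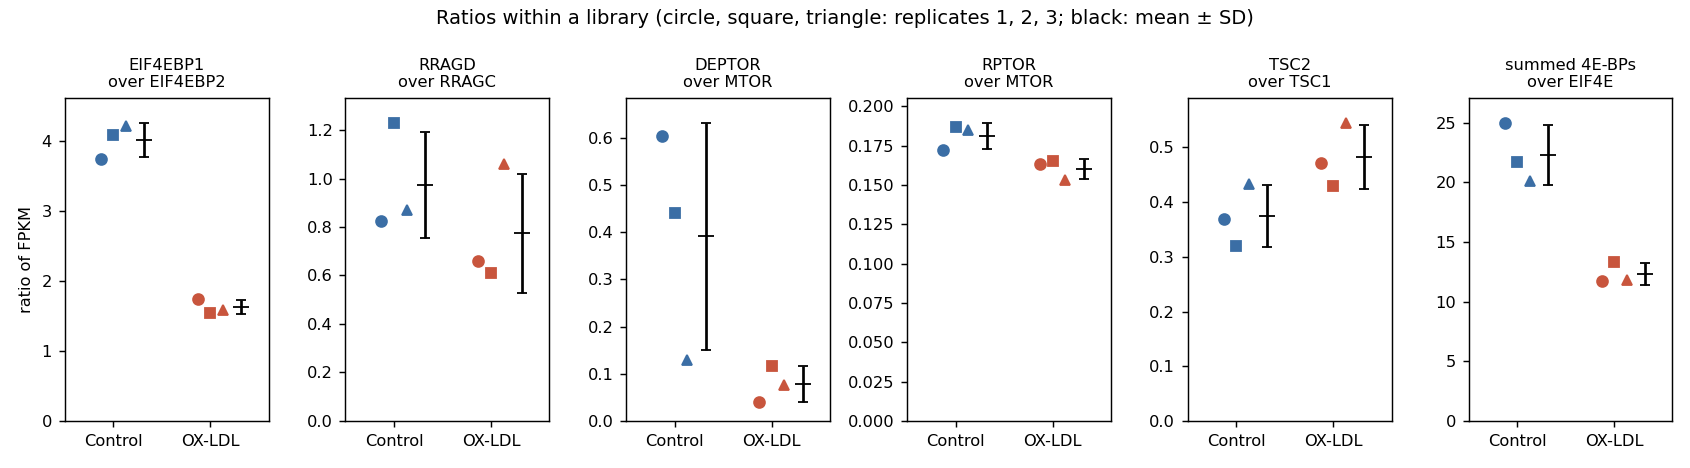
The 6 ratios of FPKM within a library (vertical axes, from 0, each on its own scale) in the 3 Control and 3 OX-LDL libraries, with circles, squares and triangles for replicates 1, 2 and 3 and the mean ± SD in black. EIF4EBP1 over EIF4EBP2 moves from a mean of 4.02 in Control to 1.63 in OX-LDL with no overlap, while RRAGD over RRAGC and TSC2 over TSC1 overlap.

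The other genes of the pathway were taken as 7 lists of 81 genes in all, of which 78 were tested. OX-LDL cells had 7 of them higher and 17 lower at an adjusted p-value under 0.05 (30.8% called, beside 15.3% of all tested genes), and their median log2 fold change was -0.09. The lists were chosen with earlier results of these data known, so this share cannot be read as independent evidence about the pathway. The groups did not overlap in FPKM for 47 of the 78, 15 higher and 32 lower, beside 37.2% of all tested genes. The number called was 15 without Control replicate 1, 8 without Control replicate 2, 15 without Control replicate 3, 11 without OX-LDL replicate 1 and 9 without OX-LDL replicate 3.

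Around the Rag GTPases, RRAGA rose, whereas FLCN, FNIP2 and SLC38A9 fell. Of 11 genes of the Rag, Ragulator and folliculin list 1 was higher and 4 were lower. The share called was 45.5%, beside 15.3% of all tested genes, and the list's median log2 fold change was -0.05. RRAGA, which encodes RagA, the partner of RagC or RagD, was at 13 ± 0.572 FPKM (SD, n = 3) in Control and 21.5 ± 1.18 in OX-LDL (log2 fold change 0.75 ± 0.09 (SE), adjusted p-value 0.00422), the opposite direction to RRAGC. FLCN, encoding folliculin, the GTPase activator of RagC and RagD, fell by 0.64 on the log2 scale (4.48 ± 0.332 to 2.81 ± 0.388 FPKM), its partner FNIP2 fell by 0.72 (14.0 ± 0.291 to 8.30 ± 1.41 FPKM), and the lysosomal arginine sensor SLC38A9 fell by 0.52 (2.43 ± 0.0741 to 1.66 ± 0.133 FPKM). RRAGA was called whichever library was left out. FNIP2 was not called without OX-LDL replicate 3 (adjusted p-value 0.0554), FLCN without either of OX-LDL replicates 1 (0.0657) and 3 (0.0594) or Control replicate 2 (0.0632), and SLC38A9 without Control replicate 1 (0.0621), Control replicate 2 (0.0646) or OX-LDL replicate 3 (0.073). RRAGA has a close paralog, RRAGB, and how shared reads were assigned is not given in the sources used here.

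Among the amino acid sensors, 2 of 6 tested genes fell and none rose past the test. The share called was 33.3%, beside 15.3% of all tested genes, and the median log2 fold change was 0.06. SESN2, encoding the leucine sensor Sestrin2 that holds mTORC1 back when leucine is scarce, went from 21.6 ± 1.80 FPKM (SD, n = 3) in Control to 6.66 ± 1.08 in OX-LDL (log2 fold change -1.67 ± 0.13 (SE), adjusted p-value 0.00157). LARS1, the leucyl-tRNA synthetase, went from 26.0 ± 2.12 to 16.7 ± 0.873 FPKM (-0.61 ± 0.08, adjusted p-value 0.00713). Both were called whichever library was left out. The other sestrin genes, named here after their values were seen, lay on the higher side in OX-LDL. SESN1 was at 2.07 ± 0.0760 FPKM in Control and 2.69 ± 0.192 in OX-LDL with no overlap (adjusted p-value 0.0537), and it was called by DESeq2 (0.00758), with upper quartile factors (0.0458) and with a minimum of 1 FPKM (0.0335). SESN3, too low for the main test, was at 0.0356 ± 0.00433 and 0.136 ± 0.0123 FPKM with no overlap, and was called with no minimum FPKM (0.0109).

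In the GATOR and KICSTOR list, whose complexes relay the sensors to the Rags, 2 of 12 genes rose and none fell. The share called was 16.7%, near the 15.3% of all tested genes, and the median log2 fold change was -0.11. SEC13 rose by 0.49 on the log2 scale (adjusted p-value 0.0193), and it also serves the secretory coat and the nuclear pore. MIOS, a subunit of GATOR2, rose by 0.43 (adjusted p-value 0.0339). SEC13 was not called without either of OX-LDL replicates 1 (0.065) and 3 (0.0611) or of Control replicates 2 (0.0725) and 3 (0.0589), and MIOS was called in 1 of the 6 fits that left out a library, that without OX-LDL replicate 2 (adjusted p-values otherwise 0.0706 without Control replicate 1, 0.11 without Control replicate 2, 0.0838 without Control replicate 3, 0.105 without OX-LDL replicate 1 and 0.114 without OX-LDL replicate 3).

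In the list of Rheb and its upstream inputs, TRIB3, DDIT4, DDIT4L and the Rheb relative RHEBL1 fell and AKT1 rose. Of 20 genes 1 was higher and 4 were lower (25.0% called, beside 15.3% of all tested genes). The list's median log2 fold change was -0.23. TRIB3, a pseudokinase that binds AKT, went from 62.1 ± 12.5 FPKM (SD, n = 3) in Control to 11.6 ± 3.23 in OX-LDL (-2.39 ± 0.24 (SE), adjusted p-value 0.00237), and was called whichever library was left out. DDIT4, encoding REDD1, which acts through the TSC complex to restrain mTORC1, went from 96.2 ± 9.14 to 47.0 ± 11.5 FPKM (-1.0 ± 0.18, adjusted p-value 0.0149), and was not called without Control replicate 2 (0.0554) or OX-LDL replicate 3 (0.0611). Its relative DDIT4L was at 4.56, 2.69 and 0.546 FPKM in Control and 0.339, 0.305 and 0.263 FPKM in OX-LDL, with the same library, Control replicate 3, lowest of its group as for DEPTOR.

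DDIT4L had a log2 fold change of -3.06 ± 0.70 (SE, adjusted p-value 0.0316), which became -2.36 when Control replicate 1 was left out, -3.54 when Control replicate 3 was, and -1.28 with limma on log2(FPKM + 1). Of the 6 fits that left out a library it was called in that without Control replicate 3 (adjusted p-values 0.0734 without Control replicate 1, 0.086 without Control replicate 2, 0.0977 without OX-LDL replicate 1, 0.0775 without OX-LDL replicate 2 and 0.11 without OX-LDL replicate 3). RHEBL1, a relative of Rheb that also activates mTORC1 and is named here after its values were seen, went from 3.62 ± 0.109 FPKM (SD, n = 3) in Control to 1.88 ± 0.520 in OX-LDL (log2 fold change -0.90, adjusted p-value 0.0445). It was called in 1 of those 6 fits, that without OX-LDL replicate 3 (0.113 without Control replicate 1, 0.121 without Control replicate 2, 0.093 without Control replicate 3, 0.104 without OX-LDL replicate 1 and 0.0905 without OX-LDL replicate 2). AKT1, the kinase that inactivates the TSC complex, rose by 0.34 on the log2 scale (adjusted p-value 0.0344) and was called in 1 of those fits, that without OX-LDL replicate 2 (0.0548 without Control replicate 1, 0.118 without Control replicate 2, 0.09 without Control replicate 3, 0.101 without OX-LDL replicate 1 and 0.0963 without OX-LDL replicate 3). RHEB itself was at 34.0 ± 0.234 FPKM (SD, n = 3) in Control and 34.6 ± 1.28 in OX-LDL (0.06 on the log2 scale, adjusted p-value 0.598).

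Downstream in translation, 2 of 11 tested genes rose and 1 fell (27.3% called, beside 15.3% of all tested genes). The median log2 fold change was 0.04. EIF4E, the partner of the 4E-BPs, was at 3.58 ± 0.497 FPKM (SD, n = 3) in Control and 3.81 ± 0.18 in OX-LDL (log2 fold change 0.12, adjusted p-value 0.513). RPS6KB2, encoding the second S6 kinase, was at 2.52 ± 0.155 and 2.45 ± 0.253 FPKM (adjusted p-value 0.983). EIF4EBP3, the remaining 4E-BP gene, was below 0.1 FPKM in both groups and was not tested, and the read-through gene ANKHD1-EIF4EBP3 shares its locus.

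EEF2K, the kinase that slows elongation, rose by 0.51 on the log2 scale (adjusted p-value 0.0177), the eIF4E scaffold EIF4G1 rose by 0.44 (0.0267) and LARP1, which binds mRNAs of the translation machinery, fell by 0.37 (0.0338). EEF2K was not called without Control replicate 2 (0.0628) or OX-LDL replicate 3 (0.0691). EIF4G1 was called only without OX-LDL replicate 2 of the 6 fits that left out a library (0.0734 without Control replicate 1, 0.0702 without Control replicate 2, 0.0775 without Control replicate 3, 0.0868 without OX-LDL replicate 1 and 0.0925 without OX-LDL replicate 3). LARP1 was called only without OX-LDL replicate 3 (0.0621 without Control replicate 1, 0.109 without Control replicate 2, 0.084 without Control replicate 3, 0.106 without OX-LDL replicate 1 and 0.0567 without OX-LDL replicate 2).

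Of the autophagy and transcription effectors, 1 of 10 tested genes rose and 5 fell (60.0% called, beside 15.3% of all tested genes). The median log2 fold change was -0.38. GRB10, an adaptor of the insulin receptor that mTORC1 phosphorylates, went from 4.36 ± 0.166 FPKM (SD, n = 3) in Control to 1.12 ± 0.191 in OX-LDL (-1.92 ± 0.14 (SE), adjusted p-value 0.00116). ATG101, a subunit of the ULK1 complex that starts autophagy, fell by 0.66 on the log2 scale (adjusted p-value 0.00726), and MITF, a relative of TFEB that is held in the cytoplasm by active mTORC1, fell by 0.53 (0.0109). These 3 genes were called whichever library was left out. UVRAG, which acts in autophagosome maturation, fell by 0.60 (0.0125) and was not called without either of OX-LDL replicates 1 (0.0518) and 3 (0.0544) or Control replicate 2 (0.0511).

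Among the 8 other subunits of the mTOR complexes 1 was lower and none higher. The share called was 12.5%, near the 15.3% of all tested genes, and their median log2 fold change was 0.12. RICTOR, the scaffold of mTORC2, went from 3.74 ± 0.302 to 2.72 ± 0.261 FPKM (SD, n = 3; log2 fold change -0.43, adjusted p-value 0.0419). It was called in 1 of the 6 fits that left out a library, that without OX-LDL replicate 2 (0.111 without Control replicate 1, 0.119 without Control replicate 2, 0.0529 without Control replicate 3, 0.113 without OX-LDL replicate 1 and 0.114 without OX-LDL replicate 3).

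**Figure D4:**
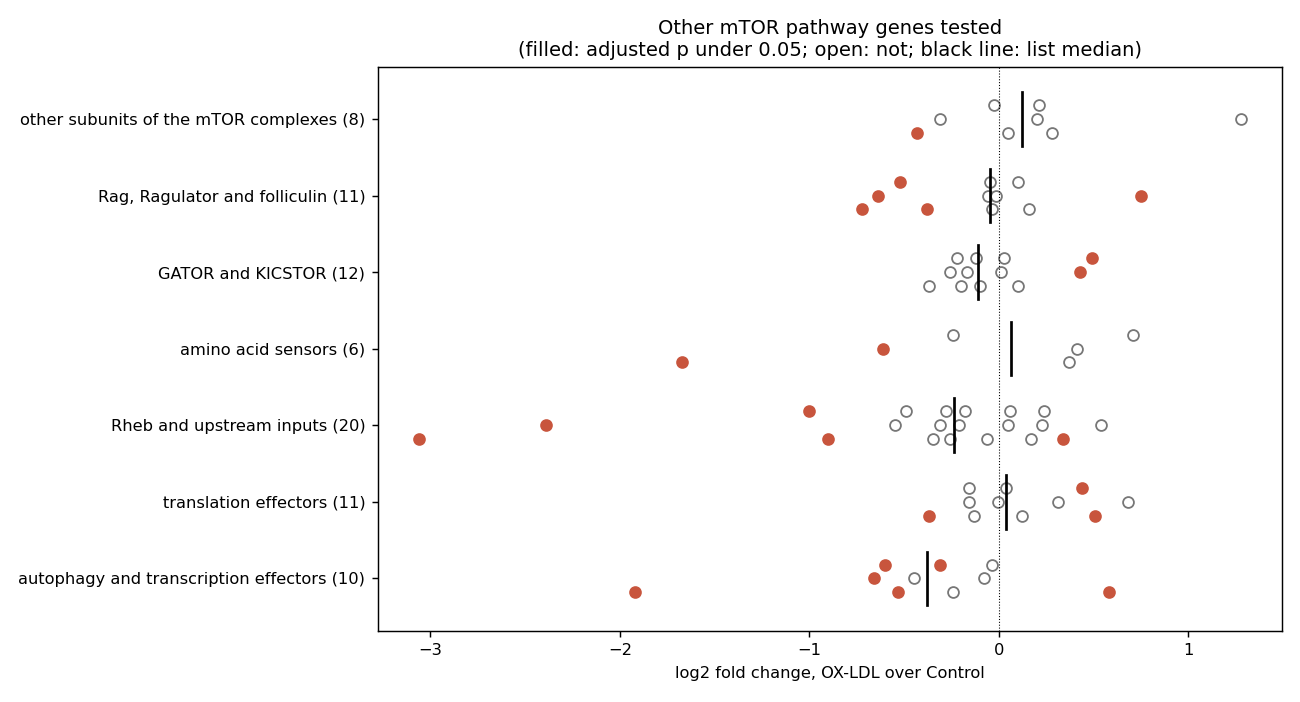
The log2 fold change of OX-LDL over Control (horizontal axis) of the 78 tested genes in the 7 lists of other pathway genes, 1 point per gene, filled where the adjusted p-value was under 0.05, with each list's median as a black line and its number of tested genes in parentheses. The medians lie between -0.38 and 0.12, and DDIT4L (-3.06), TRIB3 (-2.39), GRB10 (-1.92) and SESN2 (-1.67) are furthest to the left.

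Over the 6 libraries, the genes most like each called member in TMM-scaled expression were sought in the 12258 genes whose mean reached 1 FPKM. SLC11A2, an iron transporter, followed RRAGC with a Pearson r of 0.9995 (log2 fold change -0.46), and PPM1E, a protein phosphatase, with 0.9975 (-1.38). JPX, a non-coding RNA, followed EIF4EBP1 with an r of 0.9992 (-0.68), and EXOSC6, a subunit of the RNA exosome, with 0.9985 (-1.65). These values span both groups and so carry the group difference, and 603 genes had an r above 0.95 with RRAGC and 557 with EIF4EBP1.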

How the data were processed

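The members and the gene lists were chosen with earlier results of these data known. The authors deposited 1 table of 58825 genes on GRCh38 with an estimated count (whole numbers, scale not stated) and an FPKM value per gene and library. The submitters' processing notes name cutadapt 1.9, HISAT2 2.0.4, StringTie 1.3.4d, edgeR and DESeq2, without their roles. The deposited counts favour multiples of 4 (in Control replicate 1, 1221 genes had 4 counts and 276 had 5), so they may hold about 4 counts per read pair, and the fit was repeated on counts divided by 4.

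Counts of the 19510 genes whose mean FPKM reached 0.1 were fitted with edgeR 4.0.16 in R 4.3.3 (TMM, glmQLFit and glmQLFTest, group as the only term), with Benjamini-Hochberg adjustment over all of them and calls at an adjusted p-value under 0.05. SEs were obtained from the log2 fold change and its quasi-likelihood F statistic. Alternatives used DESeq2 1.42.0, limma 3.58.1 on log2(FPKM + 0.1) or log2(FPKM + 1), other scalings and filters, a replicate block and each library left out. The fits were tested on simulated data. Chi-square values per gene between libraries of a group were 38.2 to 65.3, far above sampling noise, so none was counted as a duplicate. Text names all 10 members, up to 4 called genes per pathway list by smallest p, 6 genes of interest (EIF4E, EIF4EBP3, RPS6KB2, RHEB, SESN2 and DDIT4), and the 2 genes most like each called member.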

Additional observations from a re-analysis of the deposited data

How the results depend on the processing

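Of 160 values of the 10 members under alternatives, 149 kept their direction and their side of the threshold. DESeq2 called 4 members (EIF4EBP1, RRAGC, RRAGD at -0.79 and DEPTOR at -2.26, adjusted p-values for the last pair 0.00885 and 0.0105) and 4430 genes in all. DEPTOR was also called with a minimum of 1 FPKM (-2.25, adjusted p-value 0.0409) and on counts divided by 4 (-2.24, adjusted p-value 0.044). All genes called numbered 1161 to 2943 with 1 library left out (1796 without Control replicate 1, 1161 without Control replicate 2, 1993 without Control replicate 3, 1262 without OX-LDL replicate 1 and 1163 without OX-LDL replicate 3), and those past the 2-fold limit 401 to 801, 283 with limma at a pseudocount of 1 and 503 with a minimum of 1 FPKM. With a library left out, members called numbered 1 to 3, pathway genes 8 to 21, higher 1 to 7 and lower 7 to 14. Higher pathway genes numbered 4 with limma at either pseudocount. Left out in turn, DEPTOR ranged from -2.68 to -1.81, TSC1 from -0.41 to -0.23, RRAGC from -0.52 to -0.40, RRAGD from -1.06 to -0.57 and RPS6KB1 from -0.38 to 0.041. RPS6KB2 was 0.017 with upper quartile factors, 0.003 with a minimum of 1 FPKM, and -0.069 to 0.073 with a library left out (0.006, 0.03 and 0.073 without Control replicate 1, Control replicate 2 and OX-LDL replicate 3). For the named pathway genes, 66 of 368 values lost the call, and RICTOR, MIOS, AKT1 and DDIT4L also lost it with limma at a pseudocount of 1 (0.0515, 0.0582, 0.0765 and 0.0994). The causes of these shifts were not tested. Libraries of equal replicate number did not deviate together (correlations of their deviations -0.11, -0.03 and 0.00). Whether a number marks a shared culture or day is not stated. With the replicate block 1636 genes, 2 members (EIF4EBP1 and RRAGC) and 12 pathway genes, 2 higher and 10 lower, were called. With 3 libraries a group, the interval of DEPTOR spans folds from 0.0759 to 0.575, which limits what can be said of its size.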
